A study of Rattus norvegicus with 12 samples.

Results

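Voltage-gated and potassium channel genes were described in RNA recovered with Staufen2 from embryonic rat brain. The members were taken by symbol alone: every probe whose gene symbol, with any ending that marks it as predicted removed, begins with Kcn, Scn and a digit, Cacn, or Hcn and a digit from 1 to 4. The rule gave 119 genes with 120 probes, of 21882 gene symbols and 22226 probes on the array, and Kcnc2 was the gene with 2 probes. The study used an antibody against Staufen2 (Stau2), which binds double-stranded RNA and is part of the particles that carry RNA in neurons, to recover RNA from lysates of whole brains of Sprague Dawley rats at embryonic day 17 to 18. The 6 Stau2 immunoprecipitates were made with a rabbit polyclonal antibody against the protein, and the 6 preimmune immunoprecipitates with preimmune antibody. The labels name no treatment or allele for either group, and the tissue label reads P18 where the design text gives the embryonic days. Each immunoprecipitate was measured on 1 array, an Illumina BeadChip for the rat. One Stau2 array has no number in its title and is replicate 0 in what follows.

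Voltage-gated channels open when the membrane depolarizes: sodium channels carry the rising phase of the action potential, calcium channels couple it to transmitter release and gene expression, and potassium channels end it and set firing patterns. Inward rectifiers and 2-pore channels hold the resting potential, and calcium-activated potassium channels follow calcium entry. Pore subunits are joined by accessory subunits that set their trafficking and gating, and part of the calcium channel gamma family serves as auxiliary subunits of AMPA-type glutamate receptors. Neurons sort many channel proteins to the axon, the cell body or the dendrites, and some channel messenger RNAs are found in dendrites.

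The 2 groups differed in how much RNA reached the arrays. Signal over background is used here for a raw signal minus its array's background, which was 66.6 to 86.6 and is the median raw signal of probes with a detection p-value of 0.4 to 0.6. Over 1840 bright probes of any gene, the median share of the Stau2 mean reached on an array, called its RNA yield here, was 68.1% to 119% for Stau2 arrays and 0.332% to 9.24% for preimmune arrays, lowest on preimmune replicates 6 and 2. Markers listed for the tissue were measured too: 8 of 8 neuronal marker genes with a probe (10 listed) were detected on all 6 Stau2 arrays and 5 of 8 on all 6 preimmune arrays, and for neural progenitors and radial glia 6 of 6 and 2 of 6. For other cells the genes detected on all 6 Stau2 arrays were 2 of 3 for astrocytes, 2 of 4 for oligodendrocytes, 1 of 3 for microglia, 1 of 2 for endothelium, 4 of 5 for red blood cells and 3 of 7 for muscle, with Myh3, Myh6 and Ckm on no Stau2 array. The summed signal over background of the neuronal markers was 21952 to 33293 on Stau2 arrays and 219 to 5428 on preimmune arrays, and that of the red blood cell markers 2599 to 16118 and 187 to 6489. Among the latter Hbb had a mean of 9937 on Stau2 and 3050 on preimmune arrays. Slc4a1, Epb42 and a Kel probe were faint, at 40.7 to 59.4 and 32.9 to 33.0, and on all 6 preimmune arrays. The part of these markers in the channel results was not tested.

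Channel probes were detected more often on Stau2 than on preimmune arrays. At a detection p-value under 0.05, Stau2 arrays detected 57 to 70 of the 120 channel probes, a mean of 53.6% ± 4.43 (SD, n = 6), and preimmune arrays 14 to 41, a mean of 23.2% ± 9.24 (SD, n = 6). Over all 22226 probes the shares were 45.4% to 48.8% on Stau2 arrays and 11.6% to 34.8% on preimmune arrays, so that the channel probes followed the array as a whole. In bulk immunoprecipitates, fewer cells of a type and less RNA per cell cannot be told apart. None of the 12 arrays holds input RNA, so abundance in the brain and recovery by the antibody cannot be told apart either. On the 4 Stau2 arrays replicate 0 to replicate 3 the channel share lay above the share of all probes, by the most on replicate 0, and on replicates 4 and 5 the lead was smaller.

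**Figure D1:**
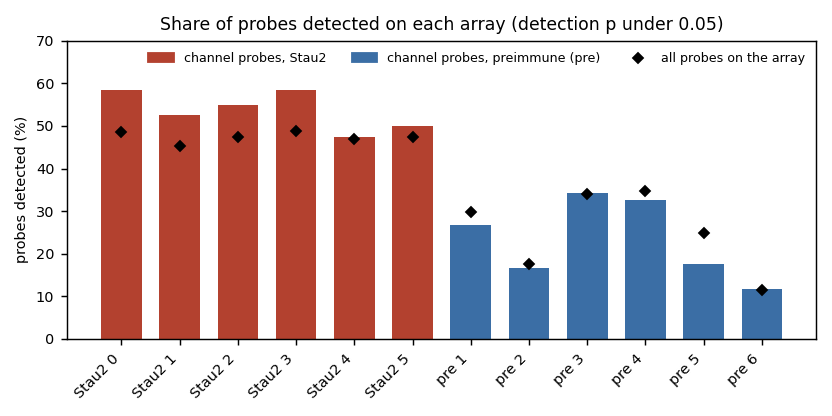
Share of channel probes detected (p under 0.05) on each of the 12 arrays (bars, in percent; red, 6 Stau2 arrays; blue, 6 preimmune arrays), with the share of all 22226 probes as diamonds. Stau2 arrays reached 47.5% to 58.3% of the channel probes and preimmune arrays 11.7% to 34.2%.

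A probe was tested when it was detected on at least 6 of the 12 arrays, which 51 channel probes of 50 genes reached (42.5%, against 41.1% of all probes). Of the 120 channel probes 11 were detected on all 12 arrays (9.17%, against 7.57% of all probes), 34 on 1 to 5 arrays and 35 on none (29.2%, against 38.1%). All 6 Stau2 arrays detected 49 (40.8%, against 38.4%), and 12 were on all 6 Stau2 and on 0 preimmune arrays (10%, against 5.2%). The probes detected nowhere included the pore subunits of the Shaker-type channels Kcna1, Kcna2 and Kcna4, the M-current subunit Kcnq3, the P/Q-type calcium channel Cacna1a, the large-conductance channel Kcnma1 and the glial inward rectifier Kcnj10. Hcn2, a pacemaker channel, was detected on 4 Stau2 arrays and 1 preimmune array, Scn8a on 1 Stau2 array, and Cacna1b, the N-type calcium channel, on 4 Stau2 arrays. Kcnj2, a strong inward rectifier, was on 0 Stau2 and 4 preimmune arrays, and Kcnq5 on 2 and 3. These probes were not tested.

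Before any scaling between arrays, the tested channel probes were brighter after Stau2 immunoprecipitation, as nearly all probes were. The mean raw signal was higher in Stau2 immunoprecipitates for 51 of 51 tested channel probes, and for 47 the 6 Stau2 arrays all lay above the 6 preimmune arrays (92.2%, against 91.1% of all 9136 tested probes). After quantile normalization, which sets each array to the same distribution and so measures a transcript relative to the others on its array, 27 of 51 channel probes were higher in Stau2 immunoprecipitates (52.9%, against 32.5% of all tested probes) and 10 were lower (19.6%, against 17%). After normalization the 6 Stau2 arrays lay above the 6 preimmune arrays without overlap for 9 (17.6%, against 20.9%) and below them for 8 (15.7%, against 11.7%). The other 14 of the 51 did not pass the test (limma, adjusted p under 0.05 over all 9136 probes). These p-values measure the spread between arrays, which may be technical, since the labels do not tie the arrays to separate brains or lysates. The median log2 difference, Stau2 minus preimmune, was 0.91 over the channel probes and 0.40 over all tested probes, with 32 of 51 above the median of all probes. Without scaling, 48 were higher (94.1%, against 97% of all tested probes) and 0 lower by limma (0 also at an unadjusted p under 0.05, against 0% of all), and with each array centred on its median 41 were higher (80.4%, against 90.4%) and 2 lower (3.92%, against 2.46%). Without scaling the median difference was 2.25 over the channel probes and 2.71 over all, and with median centring 1.73 and 2.18, with 19 of 51 above the median of all probes either way. The direction in which channel probes stood apart from the whole array thus turned with the scaling, and the differences below are relative to the array after quantile normalization. Their sizes depend on the background correction: of 25 higher channel probes compared, 15 had differences over 1.5 times smaller under limma's own background estimate, and so had 4 of 9 lower ones. Of the 27 higher, 11 were detected on 0 preimmune arrays, 12 on 1 to 5 and 4 on all 6, while 7 of the 10 lower were detected on all 6. The 11, like any tested probe on 0 preimmune arrays, passed the detection filter through the Stau2 arrays alone. Their calls are thus no separate evidence beyond that detection. Without the detection filter 23 of 120 channel probes were higher (19.2%, against 14.7% of all probes) and 12 lower (10%, against 9.96%). Leaving out 1 array ended the call of 10 of the 27 higher probes and of none of the 10 lower probes. For the splits of called probes by preimmune detection and by array left out, shares over all called probes are not given here. No trait of channel genes can be read from them.

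**Figure D2:**
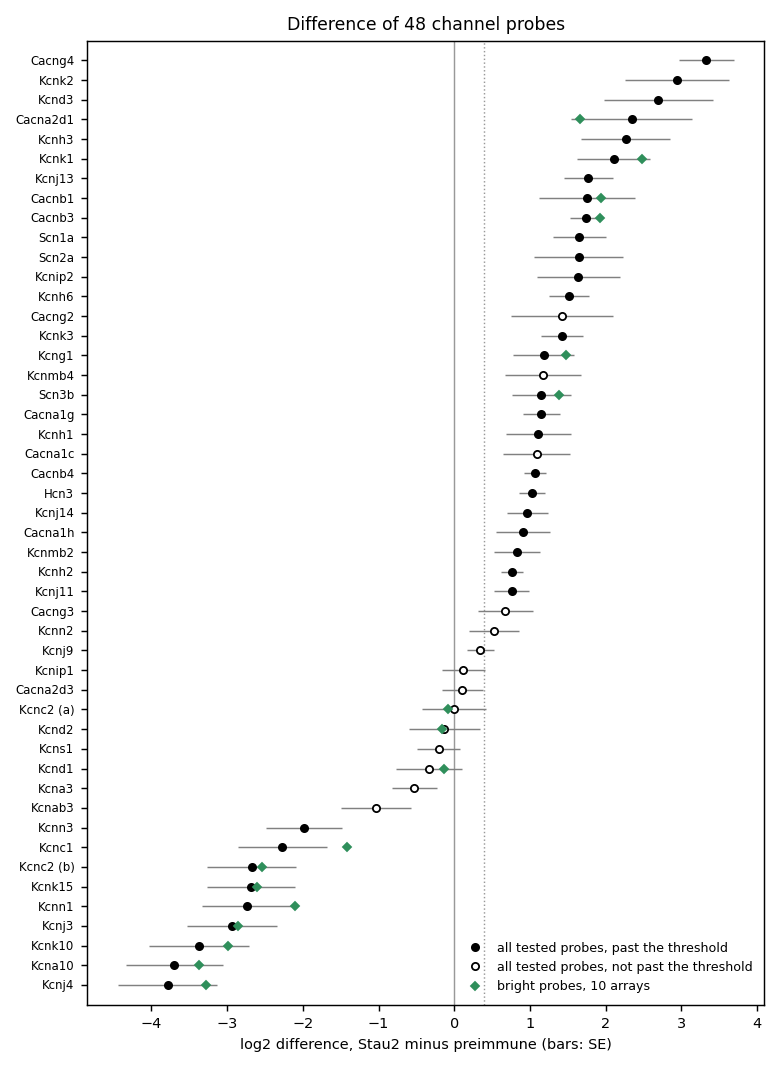
Log2 difference, Stau2 minus preimmune, of 48 of the 51 tested channel probes (points, with the standard error of the fit as bars; filled, past the threshold of 0.05; open, not past it), ordered by size, with the values over 4500 bright probes on 10 arrays as green diamonds for the 17 channel probes that have one. The dotted line is the median of all 9136 tested probes, 0.40. The values run from 3.33 for Cacng4 to -3.79 for Kcnj4.

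Among 39 probes of pore-forming and modifier subunits of voltage-gated potassium channels, 16 were tested, of which 8 were higher, 3 lower and 5 not called. Kcnd3, a pore subunit of the fast inactivating A-type current of dendrites, had a signal over background of 453 to 2455 (median 1220) on Stau2 arrays and -2.14 to 68.7 (median 20.8) on preimmune arrays, which gave a log2 difference of 2.70 ± 0.72 (SE of the fit, 6 arrays per group; adjusted p = 0.00636). All 6 Stau2 arrays were bright, and 3 preimmune arrays detected the probe. The other members of its subfamily did not pass the test. Kcnd2 had 317 to 960 (median 673) on Stau2 arrays and 5.43 to 122 (median 39.2) on preimmune arrays, with a difference of -0.13 ± 0.47 (adjusted p = 0.839), and Kcnd1 had -0.34 ± 0.44 (adjusted p = 0.553). Whether Kcnd3 differs from the other members of its subfamily was not tested.

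Kcnh3, a channel of the ether-à-go-go family found in forebrain neurons, had 269 to 1053 (median 617) on Stau2 arrays and -4.73 to 42.2 (median 9.85) on preimmune arrays, a difference of 2.27 ± 0.59 (adjusted p = 0.00532). Kcnh6, an ERG-type channel of the same family, was detected on no preimmune array, with 62.8 to 145 (median 104) on Stau2 arrays and -5.63 to 3.39 (median 0.597) on preimmune arrays. It was at least 1.59-fold higher in Stau2 immunoprecipitates (difference 1.52 ± 0.26, adjusted p = 0.0003). A bound of this kind sets the Stau2 mean against the lowest detected value of each preimmune array, or the probe's own where that is higher, and it moves with the background correction, so the bound under limma's own background estimate follows each below. For Kcnh6 it was 1.12. Kcnh1, the founding gene of the family, and Kcnh2, its channel of heart repolarization, were higher by 1.11 ± 0.43 and 0.76 ± 0.14, beside 32.5% higher over all tested probes. Without scaling the 4 tested members of the family were at 1.39 to 4.36, and Kcnh3 was the one above the median of 2.71 over all tested probes. The Kcnh1 call ended on leaving out any of Stau2 replicates 0 to 3 or preimmune replicates 2, 5 or 6 (differences of 0.95 to 1.06, adjusted p = 0.0651 to 0.0985).

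Kcng1 forms no channel of its own and modifies delayed rectifier channels. It had 1007 to 4306 (median 1863) on Stau2 arrays and 8.40 to 108 (median 49.9) on preimmune arrays, a difference of 1.18 ± 0.41 (adjusted p = 0.0252), and this call ended without Stau2 replicate 0 or 1 or preimmune replicate 5 (0.97 to 1.05, adjusted p = 0.0514 to 0.0698). Kcns1, another silent modifier, was not called (-0.20 ± 0.28), nor was the Shaker-type Kcna3 (-0.53 ± 0.30, adjusted p = 0.155; called lower without preimmune replicate 3, -0.74, adjusted p = 0.0456), with 13.2 to 22.0 on Stau2 arrays and -0.85 to 10.2 on preimmune arrays.

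Kcnc1, a Shaw-type channel that allows fast spiking in interneurons, was lower after normalization by -2.27 ± 0.59 (adjusted p = 0.00507), although its signal over background was 94.3 to 243 (median 176) on Stau2 arrays and 31.4 to 52.0 (median 37.8) on preimmune arrays, and without scaling its difference was 1.73. With median centring it was higher, at 1.21 (adjusted p = 0.000367). The call was lost in the first run of array codes alone (adjusted p = 0.056).

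The probes of Kcnc2 belong to transcript variants a and b, per the array's annotation, and disagreed. The variant a probe had 81.8 to 337 (median 251) on Stau2 arrays and 6.62 to 31.8 (median 16.5) on preimmune arrays, and no difference was called (SE 0.42, adjusted p = 1). The variant b probe had 20.9 to 72.5 (median 38.7) on Stau2 arrays and 18.8 to 25.5 (median 20.6) on preimmune arrays, with a difference of -2.68 ± 0.59 (adjusted p = 0.00163) that was 0.64 without scaling and 0.12 with median centring. Relative to the mean of the 4 preimmune arrays other than replicates 2 and 6, the Stau2 mean was 10.4 times as bright for variant a and 1.92 times for variant b. Kcna10, a Shaker-related channel gated in part by cyclic nucleotides, was lower by -3.70 ± 0.64 (adjusted p = 0.000288) and is described with the probes of level signal below.

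Of 15 probes of potassium channel accessory subunits, 5 were tested: 2 higher and 3 not called, beside 32.5% higher over all tested probes. Kcnip2, a calcium-binding partner of the Kcnd channels, had 511 to 1995 (median 1245) on Stau2 arrays and 6.41 to 104 (median 18.5) on preimmune arrays, a difference of 1.64 ± 0.55 (adjusted p = 0.0216). The call ended without Stau2 replicate 2 or 3 (1.49 for each, adjusted p = 0.0518 and 0.0517). Kcnip1, its paralog, was not called (0.12 ± 0.28), nor was the cytoplasmic beta subunit Kcnab3 (-1.03 ± 0.47, adjusted p = 0.0781). Kcnab3 was called lower without preimmune replicate 1 or 5 (-1.27 for each, adjusted p = 0.0441 to 0.0473), and was at -0.58 without preimmune replicate 2. Kcnmb2, a beta subunit of the large-conductance calcium-activated channel, was higher by 0.83 ± 0.30 (adjusted p = 0.0336). Kcnmb4, a further beta subunit of that channel, was at 1.17 ± 0.50 and did not pass the test (adjusted p = 0.0659), but did without preimmune replicate 1 or 3 (1.36 to 1.46, adjusted p = 0.0287 to 0.0472). The Kcnmb2 call ended without any of 7 arrays (Stau2 replicates 0, 2, 3 or 5, preimmune replicates 2, 5 or 6; adjusted p = 0.0518 to 0.0751). The pore subunit they join, Kcnma1, was on no array.

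Inward rectifiers had 14 probes, 6 tested: 3 higher, 2 lower and 1 not called, beside 32.5% higher and 17% lower of all tested probes. Kcnj13, a low-conductance channel best known from epithelia such as the choroid plexus, had 39.5 to 235 (median 127) on Stau2 arrays and -2.16 to 4.04 (median 0.336) on preimmune arrays, none of which detected it. It was at least 1.73-fold higher (1.22 under limma's background; difference 1.77 ± 0.32, adjusted p = 0.000422). Kcnj11, the pore of the ATP-sensitive channel, was at least 1.12-fold higher (1.01 under limma's background; 0.76 ± 0.23, adjusted p = 0.012), with 35.7 to 111 (median 64.1) on Stau2 arrays and 2.23 to 9.55 (median 4.06) on preimmune arrays, and Kcnj14 was higher by 0.97 ± 0.27. Of the G protein-activated channels, Kcnj9 was not called (0.35 ± 0.18, adjusted p = 0.119), but was without preimmune replicate 4 (0.48, adjusted p = 0.0281). Kcnj3 was lower by -2.93 ± 0.59 (adjusted p = 0.000847). Whether these differ from the other inward rectifiers was not tested. Kcnj3 had 25.1 to 43.6 (median 31.7) on Stau2 arrays and 14.1 to 33.9 (median 22.6) on preimmune arrays, groups that overlapped. Its difference by limma was 0.38 without scaling (adjusted p = 0.0386), and it was not called with median centring (-0.14, adjusted p = 0.362).

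Of the 8 probes of 2-pore channels, which carry the background potassium current, 5 were tested and each was called, 3 higher and 2 lower. Kcnk2, opened by membrane stretch and lipids, had 930 to 2432 (median 1668) on Stau2 arrays and 0.576 to 66.7 (median 22.5) on preimmune arrays, a difference of 2.95 ± 0.69 (adjusted p = 0.00244). Kcnk1, a weak inward rectifier of the family, had 998 to 5345 (median 3378) on Stau2 arrays and 9.71 to 87.0 (median 39.4) on preimmune arrays, all of which detected it, and a difference of 2.11 ± 0.49 (adjusted p = 0.00229). Kcnk3, closed by extracellular acid, was detected on 0 preimmune arrays. It had 33.4 to 132 (median 112) on Stau2 arrays and -1.38 to 6.38 (median 2.09) on preimmune arrays, at least a 1.43-fold difference (1.10 under limma's background; log2 difference 1.42 ± 0.28, adjusted p = 0.000751). In each of these 3 the Stau2 arrays of the second run of codes, replicates 4 and 5, were the dimmest of the group.

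Kcnk10, the paralog of Kcnk2, was lower by -3.38 ± 0.66 (adjusted p = 0.000706), with 37.8 to 49.5 (median 41.3) on Stau2 arrays and 28.2 to 38.1 (median 31.3) on preimmune arrays. Kcnk15, a relative of Kcnk3 that has given no current in expression systems, was lower by -2.68 ± 0.58 (adjusted p = 0.00146), with 25.9 to 40.1 (median 33.6) on Stau2 arrays and 16.2 to 22.9 (median 19.1) on preimmune arrays. Both were brighter on Stau2 arrays before scaling, by 0.31 and 0.56, and neither call held with median centring (-0.21 and 0.03, adjusted p = 0.156 and 0.769).

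**Figure D3:**
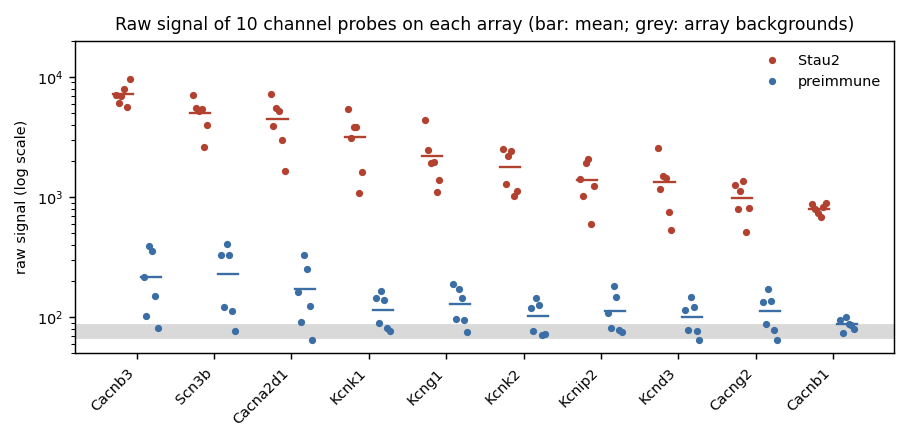
Raw signal (log scale) of the 10 channel probes with the highest mean raw signal in Stau2 immunoprecipitates, on each of 6 Stau2 (red) and 6 preimmune (blue) arrays, with the group mean as a bar and the range of the array backgrounds, 66.6 to 86.6, in grey. The Stau2 arrays stand above the preimmune arrays for each of the 10 probes, and for each of them some preimmune arrays lie within or below the range of the backgrounds.

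Small-conductance calcium-activated channels, which take part in the potential after a spike, had 3 tested probes, of which 2 were lower and 1 was not called. Among all tested probes 17% were lower. Kcnn1 was lower by -2.74 ± 0.59 (adjusted p = 0.00143), with 50.6 to 102 (median 82.1) on Stau2 arrays and 28.8 to 35.8 (median 33.3) on preimmune arrays. Its direction turned with median centring, to 0.49 (adjusted p = 0.00903), and was 1.01 without scaling. Kcnn3 was lower by -1.98 ± 0.50 (adjusted p = 0.00411), with 19.1 to 44.4 (median 36.2) on Stau2 arrays and 7.73 to 25.1 (median 14.5) on preimmune arrays, but at 0.78 without scaling, 0.26 with median centring, and not called in the first run of codes alone (-1.41, adjusted p = 0.0741). Kcnn2 was not called (0.52 ± 0.33, adjusted p = 0.203), and was called without preimmune replicate 6 (0.78, adjusted p = 0.0297).

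Of the sodium channel genes, 3 of 9 pore subunit probes and 1 of 4 beta subunit probes were tested. Of these, 3 were higher and 1 lower, beside 32.5% higher and 17% lower over all tested probes. Scn1a, a main sodium channel of interneurons, had 41.5 to 237 (median 144) on Stau2 arrays and -1.09 to 9.40 (median 2.86) on preimmune arrays, and was at least 1.82-fold higher (1.26 under limma's background; difference 1.65 ± 0.35, adjusted p = 0.00116). Scn2a, the early axonal sodium channel, is listed under its older symbol Scn2a1. It had 51.9 to 407 (median 280) on Stau2 arrays and -6.11 to 18.9 (median 8.08) on preimmune arrays, a difference of 1.64 ± 0.58 (adjusted p = 0.0295). This call ended without any of Stau2 replicates 0 to 3 or preimmune replicates 2, 5 or 6 (1.44 to 1.55, adjusted p = 0.0534 to 0.0699). Scn3b, a beta subunit, had 2517 to 7047 (median 5227) on Stau2 arrays and 9.37 to 330 (median 146) on preimmune arrays, a difference of 1.15 ± 0.39 (adjusted p = 0.0244), lost without Stau2 replicate 0 or 1 or preimmune replicate 5 (0.96 to 1.06, adjusted p = 0.0543 to 0.06). A probe listed under a locus name and currently assigned to Scn3a, which the symbol rule does not take, had 228 to 581 (median 447) on Stau2 arrays and 3.58 to 84.7 (median 39.5) on preimmune arrays and was not called (0.08 ± 0.52, adjusted p = 0.92).

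Calcium channel pore subunits had 7 probes and 3 tested: 2 higher and 1 not called, beside 32.5% higher over all tested probes. Cacna1g and Cacna1h form T-type channels, which open near the resting potential. Cacna1g had 39.2 to 94.8 (median 87.1) on Stau2 arrays and -1.57 to 7.54 (median 2.27) on preimmune arrays, and was at least 1.24-fold higher (1.04 under limma's background; difference 1.15 ± 0.24, adjusted p = 0.00127). Cacna1h was higher by 0.91 ± 0.35 (adjusted p = 0.0435), a call lost without any of 7 arrays (Stau2 replicates 0 to 3, preimmune replicates 2, 5 or 6; adjusted p = 0.06 to 0.0965) and under limma's own background (0.23, adjusted p = 0.0628). Cacna1c, the L-type channel that signals to the nucleus, had 162 to 256 (median 213) on Stau2 arrays and 0.692 to 23.4 (median 12.8) on preimmune arrays and did not pass the test (1.09 ± 0.45, adjusted p = 0.0551). It was called without preimmune replicate 1 or 3 and under limma's own background (0.48, adjusted p = 0.0437).

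Auxiliary subunits of calcium channels had 7 probes and 5 tested, of which 4 were higher and 1 was not called, beside 32.5% higher over all tested probes. Cacnb3, a cytoplasmic beta subunit that brings the pore to the membrane, had 5534 to 9479 (median 6925) on Stau2 arrays and 14.3 to 317 (median 108) on preimmune arrays. Its difference of 1.73 ± 0.21 (adjusted p = 1.38e-05) kept its call and direction without any 1 array (1.63 to 1.83). Cacnb1, a further beta subunit, had 596 to 813 (median 731) on Stau2 arrays, the narrowest range relative to its own median among the 10 brightest channel probes, and -1.65 to 22.3 (median 15.9) on preimmune arrays. Its difference was 1.76 ± 0.64 (adjusted p = 0.0324). That call ended without any of 8 arrays (Stau2 replicates 0, 1, 2 or 4, preimmune replicates 1 to 4), with differences of 1.28 to 1.74 (adjusted p = 0.0502 to 0.067), and in the second run of codes alone the difference was -0.05.

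Cacna2d1, an alpha2-delta subunit and the binding site of gabapentin, had 1562 to 7189 (median 4479) on Stau2 arrays and -2.64 to 254 (median 67.5) on preimmune arrays, a difference of 2.34 ± 0.80 (adjusted p = 0.0239). Without preimmune replicate 6, the array with the lowest yield, the difference was 1.49 and the call held. Cacnb4, mutated in the lethargic mouse, was detected on 0 preimmune arrays. It had 19.4 to 63.4 (median 54.5) on Stau2 arrays and -12.8 to -1.01 (median -7.14) on preimmune arrays. It was higher by 1.07 ± 0.14 (adjusted p = 3.72e-05), with no fold above 1 as its bound, and by 0.19 under limma's own background. Cacnb4 passed the detection filter through the Stau2 arrays alone, so its call is no separate evidence beyond that detection. Cacna2d3 was not called (0.11 ± 0.27, adjusted p = 0.766).

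The calcium channel gamma family had 8 probes and 3 tested. These 3, Cacng2, Cacng3 and Cacng4, are among the members that serve as auxiliary subunits of AMPA receptors. Cacng4 had the largest difference of all channel probes, 3.33 ± 0.36 (adjusted p = 6.58e-06), and the largest bound, at least 4.97-fold higher in Stau2 immunoprecipitates (2.65 under limma's background, where the difference was 1.63). Its signal over background was 181 to 679 (median 451) on Stau2 arrays and -6.88 to 4.21 (median 0.251) on preimmune arrays, none of which detected it. The groups did not overlap, and the call held without any 1 array. Cacng4 passed the detection filter through the Stau2 arrays alone, so neither result is separate evidence beyond that detection. Cacng2, whose loss gives the stargazer mouse, had 426 to 1275 (median 890) on Stau2 arrays and -1.54 to 94.4 (median 33.5) on preimmune arrays. Its difference of 1.42 ± 0.68 did not pass the test (adjusted p = 0.0935), and did in the first run of codes alone (0.78, adjusted p = 0.00773) and when the code run was a block in the fit (1.42, adjusted p = 0.0111). Cacng3 was not called (0.68 ± 0.36, adjusted p = 0.135).

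Of the 4 pacemaker channel probes, Hcn3 was the one tested. It had 25.0 to 71.9 (median 48.7) on Stau2 arrays and -4.50 to -0.434 (median -2.13) on preimmune arrays, none of which detected it. It was higher by 1.03 ± 0.17 (adjusted p = 0.000251), with no fold above 1 as its bound, and by 0.18 under limma's own background. Hcn3 passed the detection filter through the Stau2 arrays alone, so its call is no separate evidence beyond that detection.

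Among the 11 channel probes detected on all 12 arrays, the 4 called higher were far brighter on the high-yield Stau2 arrays than on the preimmune arrays, and 2 of the 7 called lower, Kcnj4 and Kcna10, were close to level. In a fit of all 1683 probes detected on all 12 arrays, 15.9% were higher and 60.2% lower, beside 36.4% and 63.6% of these 11. The share of lower calls was thus near that of all such probes. Kcnj4, a strong inward rectifier of forebrain neurons, had the lowest difference of all channel probes after normalization, -3.79 ± 0.66 (adjusted p = 0.000304). Its signal over background was 36.0 to 50.3 (median 43.3) on Stau2 arrays and 38.1 to 42.6 (median 39.6) on preimmune arrays, while the yields of the same arrays ran from 0.332% to 119%. Its groups overlapped, and without scaling its difference was 0.09 (adjusted p = 0.575), against a median of 2.71 over all tested probes. Kcna10 had 35.0 to 38.8 (median 37.1) on Stau2 arrays and 33.8 to 42.8 (median 35.8) on preimmune arrays, with a difference of 0.06 without scaling (adjusted p = 0.707). A further probe, listed under a locus name and currently assigned to Kcna10, was as level, with 25.2 to 32.8 on Stau2 arrays and 24.7 to 35.5 on preimmune arrays, and had -3.45 after normalization. Over the 12 arrays Kcnk10 had 28.2 to 49.5 and Kcnj3 14.1 to 43.6. After normalization the log2 value of Kcnj4 was 5.21 to 5.64 on Stau2 arrays and 7.48 to 11.82 on preimmune arrays, and on the preimmune arrays it was highest, at 11.82 and 10.66, on replicates 6 and 2, which had the lowest yields. With median centring Kcnj4 and Kcna10 were still called lower, by -0.43 (adjusted p = 0.00726) and -0.46 (adjusted p = 0.00311), and these were the 2 channel probes lower under that scaling. What the level signal of these probes comes from was not tested.

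**Figure D4:**
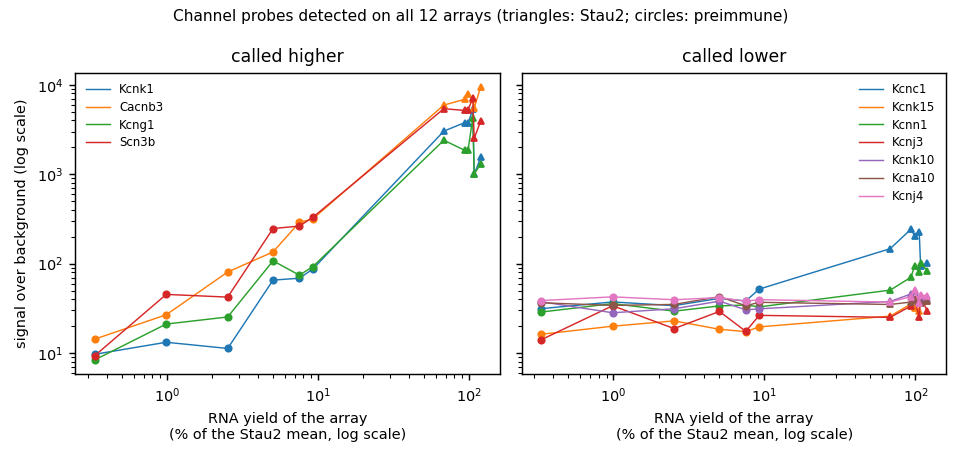
Signal over background (log scale) of the 11 channel probes detected on all 12 arrays against the RNA yield of the array in percent of the Stau2 mean (log scale); triangles are 6 Stau2 arrays and circles 6 preimmune arrays, with the 4 probes called higher on the left and the 7 called lower on the right. On the left the Stau2 arrays stand above the preimmune arrays, while within the Stau2 arrays Kcnk1, Kcng1 and Scn3b are dimmer on replicates 4 and 5, which have the highest yields. On the right Kcnj4 stays between 36.0 and 50.3 and Kcna10 between 33.8 and 42.8.

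A comparison over bright probes was chosen after seeing the data. It kept probes with a signal over background of at least 10 on every array other than preimmune replicates 2 and 6, subtracted the background and centred each array on the median of these 4500 probes, of which 25.8% were higher and 40.3% lower. It held 17 channel probes, of which 6 were higher, 8 lower and 3 not called. Kcnk1 was higher by 2.49, Cacnb1 by 1.94, Cacnb3 by 1.93, Cacna2d1 by 1.67, Kcng1 by 1.48 and Scn3b by 1.38. The 3 not called were the variant a probe of Kcnc2, Kcnd1 and Kcnd2, at -0.08, -0.14 and -0.16. The 8 lower ran from -1.41 for Kcnc1 to -3.37 for Kcna10. The mean signal over background in Stau2 immunoprecipitates was 52.8 times that of the 4 preimmune arrays for Kcnk1, 39.6 times for Cacnb1, 34.7 times for Cacnb3 and 30.5 times for Cacna2d1, against a median of 8.10 over the 4500 probes, and 1.07 times for Kcnj4 and 1.00 times for Kcna10.

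Within the Stau2 group, channel probes differed between the 2 runs of consecutive codes that head the array columns. The first run holds Stau2 replicates 0 to 3 and preimmune replicates 1 to 4, and the second Stau2 replicates 4 and 5 and preimmune replicates 5 and 6. The labels do not say what the codes stand for. Among tested channel probes with a Stau2 mean signal over background of at least 100, 23 of 25 were dimmer in the second run, with a median ratio of second to first run of 0.48, while over all 6036 such probes the median was 1.31 and 28.4% were dimmer. The ratio was 0.27 for both Scn2a and Kcnj13, 0.30 for Scn1a, 0.32 for Kcnk1 and 0.35 for Kcnd3. Cacnb3 and Cacnb1, at 1.08 and 1.13, were the 2 channel probes brighter in the second run. With 2 arrays in the second run these ratios are a description of the arrays, with no test. With the run as a block in the fit, 30 channel probes were higher and 10 lower (34.3% and 18% of all tested probes). In the first run alone 26 were higher and 7 lower (29.8% and 20%). In the second run alone 3 were higher and 0 lower (9.38% and 0.591%). At an unadjusted p under 0.05 in limma 10 of 51 were lower in that run, against 908 of all 9136 tested probes.

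**Figure D5:**
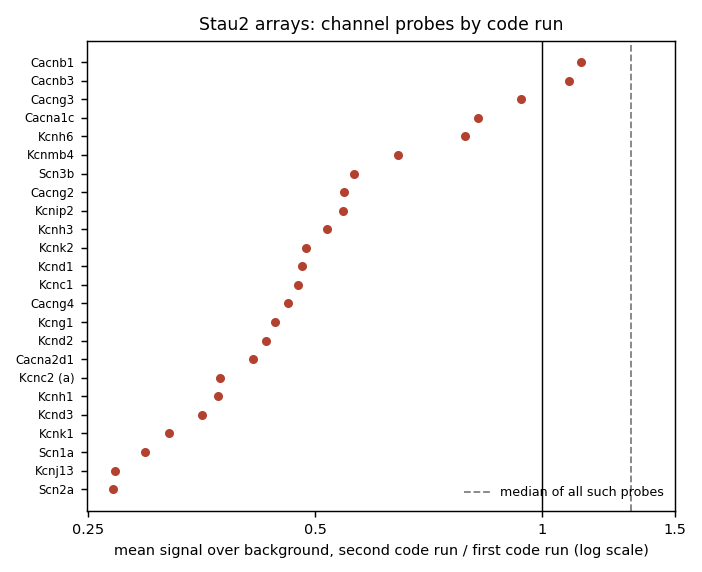
Ratio of the mean signal over background on Stau2 arrays of the second run of codes (replicates 4 and 5) to that of the first run (replicates 0 to 3), on a log scale, for 24 of the 25 tested channel probes with a Stau2 mean of at least 100. The dashed line is the median of all 6036 such probes, 1.31; 22 of the 24 points lie below 1.

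Genes of proteins that bind, cluster or modulate these channels were taken from a list of 39, of which 28 had a probe and 17 were tested, each with 1 tested probe. Of these, 10 were higher, 1 lower and 6 not called, with a median difference of 0.98, beside 32.5% higher, 17% lower and a median of 0.40 over all tested probes. Without scaling and with median centring 17 of 17 were higher, as 97% and 90.4% of all tested probes were. Calm3, which encodes the calmodulin bound by calcium and Kcnq channels, was higher by 1.78 ± 0.15 (adjusted p = 1.05e-06). Calm2, which encodes the same protein, was lower by -0.58 ± 0.10 (adjusted p = 0.000261), but at 3.14 without scaling and 2.62 with median centring. Rims1, a presynaptic scaffold that binds calcium channels, Fgf12, a partner of sodium channels inside the cell, and Dpp6, an auxiliary subunit of the Kcnd channels, were detected on 0 preimmune arrays. Rims1 was at least 3.31-fold higher (difference 2.56 ± 0.42), Fgf12 at least 2.10-fold (2.09 ± 0.34) and Dpp6 at least 1.09-fold (1.00 ± 0.21, adjusted p = 0.00123), and under limma's own background these bounds were 1.94 and 1.37, with none for Dpp6. Fgf12 had a signal over background of 692 on Stau2 replicate 5 and 60.4 to 121 on the other Stau2 arrays. Its bound and difference rest on a mean that includes that array. Another 5 of the 10 were Stx1a, Fgf13, Unc79, Dlg1 and Gnb1, at 0.33 to 1.74, and the call of Unc79 was lost under limma's own background (adjusted p = 0.0763).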

How the data were processed

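Per the labels' protocols, RNA from 6 Stau2 and 6 preimmune immunoprecipitates was hybridised to Illumina rat BeadChips. The authors deposited raw signal intensities with detection p-values, per probe and array, and a table of log2 values. Each of the 22226 probes had the logarithm of its raw signal there (tolerance 1e-04). Per the submitters' processing notes RMA was used; no version of it is given in the sources used here. Columns of detection p-values carry codes absent from the labels; each was taken with the signal column before it and checked (205 to 268 of 22225 neighbouring probes out of order by signal, against at least 6744 for other columns).

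Signals were background-corrected with the normexp model (offset 16), quantile normalized and tested with limma 3.58.1 under R 4.3.3, using lmFit and a trended eBayes. Tests were two-sided with Benjamini-Hochberg adjustment over the 9136 probes detected on at least 6 arrays (threshold 0.05). Errors of differences are standard errors of the fit. The background mean and SD came from probes with detection p-values of 0.4 to 0.6 and 0.14 to 0.18. This estimate was chosen after all channel results had been seen under limma's own, which gave background SDs of 84.8 to 173 on Stau2 arrays, against 6.72 to 10.1 here. The scripts were tested on simulated data. The number of arrays and the signal over background limit the precision. Arrays were grouped by title.

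Members, lists and tests were chosen with earlier results of these data known. Named were the 15 highest and 10 lowest called members, the 10 brightest, those on all 12 arrays, up to 10 on all 6 Stau2 and 0 preimmune arrays, Kcnj4, called members whose direction turns with scaling, disagreeing probes of 1 gene, and 6 partners by adjusted p. Other members were added after their values were seen, to account for small groups. Some single-gene results are left out and not reported here, although counts include them. The bright-probe comparison was planned without a minimum; several minimums were counted, with the members each kept in view, before 10 was taken, and its 10-array form was added later. Of 119 member symbols 117 equal the current symbol in the RefSeq gene table. Bead standard errors (12 columns) were not used. No sequence is printed, since the sources used here hold none of the probes or proteins. Alternatives were other scalings, backgrounds, filters, weights, code runs, a replicate block and leaving out arrays.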

Additional observations from a re-analysis of the deposited data

Results flagged for a closer look

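In 8 of 72 groups of 6 arrays, for 36 named probes, 1 array stood apart from the other 5 by more than Dixon's test allows at the 95% level, and chance marks about 1 group in 20. All values are normalized log2 values. In the Stau2 group these were Cacnb1 on replicate 1 (9.18, nearest 8.67), Kcna10 on replicate 1 (5.58, nearest 5.24) and Fgf12 on replicate 5 (8.29, nearest 6.39). In the preimmune group Cacna2d1 on replicate 6, the array with the lowest RNA yield, was at 4.4 with the nearest at 8.73, and its log2 difference was 1.49 without that array, against 2.34 with it. Kcnh6 was also apart on preimmune replicate 6 (5.62, nearest 4.59). Kcnk1 and Kcnj13 were apart on preimmune replicate 5 (6.80, nearest 8.38, and 4.91, nearest 4.52), and Kcnk3 on preimmune replicate 4 (4.98, nearest 4.62). Kcnh6, Kcnj13 and Kcnk3 were detected on none of the preimmune arrays, so their preimmune values lie at background.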

How the results depend on the processing

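Without scaling 27 of the 51 tested channel probes kept their call and with median centring 31 did: each of the 27 higher calls was kept, 0 and 2 of the 10 lower were, and 14 and 12 probes that were not called became higher. The 27 channel probes called higher became 48 without scaling and 41 with median centring, and the 10 called lower became 0 (0 also at an unadjusted p under 0.05 in limma, among 51 members and among all 9136 probes) and 2. Counts higher were 4 for probes detected on all 12 arrays (15.9% of all such probes were higher) and 3 in the second code run alone (9.38% of all). They were 1 for bright probes on 12 arrays (28.4% of all) and 6 on 10 arrays (25.8% of all). Of the channel probes detected on all 12 arrays 7 were lower (60.2% of all such probes). In the second code run alone 0 were lower, and 10 at an unadjusted p under 0.05 in limma, against 908 of all 9136 tested probes. Leaving out 1 array gave 19 to 28 higher and 10 to 11 lower. The other alternatives kept both counts within 1.5 times but not the sizes. Of 25 higher differences 15 were over 1.5 times smaller under limma's own background, 14 with an offset of 50 and 15 without background correction. Under limma's background Cacng4 was at 1.63, Kcnj13 at 0.49, Scn1a at 0.52, Kcnh6 at 0.35, Kcnk3 at 0.34, Cacna1g at 0.25, Cacnb4 at 0.19, Hcn3 at 0.18, Kcnj11 at 0.16 and Dpp6 at 0.19, while Cacnb3 was at 1.77, Kcnk1 at 2.20, Kcng1 at 1.25 and Scn3b at 1.19. At least 6 arrays detected 46 channel probes at a detection p under 0.01, against 51. Without scaling the direction turned for Kcnj4 (0.095), Kcna10 (0.059), Kcnk10 (0.31), Kcnj3 (0.38), Kcnn1 (1.01), Kcnk15 (0.56), the variant b probe of Kcnc2 (0.64), Kcnc1 (1.73), Kcnn3 (0.78) and Calm2 (3.14). It turned with median centring for Kcnn1 (0.49), Kcnk15 (0.034), the Kcnc2 variant b probe (0.12), Kcnc1 (1.21), Kcnn3 (0.26) and Calm2 (2.62), and in the second code run alone for Cacnb1 (-0.046). The Kcnc2 variant a probe, with a difference near 0, turned without scaling (2.85), with median centring (2.33), without background correction (0.028), with an offset of 50 (0.023), array weights (0.54), preimmune replicates 2 and 6 left out (0.042), the first run alone (0.61), the replicate block (0.026), limma's own background (0.087) and on leaving out 1 array (-0.12 to 0.23). Apart from scaling, the cause was not tested. Same-numbered arrays had correlations of their deviations of -0.10 to 0.25. These cannot settle whether arrays were paired, since 1 Stau2 array has no number and equal numbers need not mark a pair. Stau2 replicate 4 is in the second run of codes and preimmune replicate 4 in the first. Other matches of the arrays were not tested. With the replicate number as a block 20 channel probes were higher and 10 lower (30.6% and 19.4% of all tested probes), under the same limit. Signal over background limits the preimmune side, where 19 of the 27 higher probes had a mean under 20.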
